A study of Mesocricetus auratus with 24 samples.

Results

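The MAP kinase phosphatases measured here were 10 of the 19938 genes with a single symbol on the arrays, namely Dusp1, Dusp2, Dusp4, Dusp5, Dusp6, Dusp7, Dusp8, Dusp10, Dusp14 and Dusp16. The family was chosen by a measured value, because Dusp1 was lower in stimulated GASH/Sal than in stimulated Syrian arrays. That difference of Dusp1 is therefore given as a description with no test, and so are the members' other values between the stimulated groups. All 10 members had a probe set, and the main fit applied no filter on signal. RNA came from the inferior colliculus, the midbrain auditory centre in which sound-evoked seizures begin, of 24 hamsters aged 16 weeks, with 6 animals in each of 4 groups. Control Syrian hamsters and GASH/Sal hamsters (GASH:Sal in the labels), a strain bred for seizures triggered by sound, were each left without sound (naïve) or exposed to it (stimulated). Tissue of stimulated animals was collected 60 min after stimulation, a time the design text counts from the seizures, so every difference between stimulated and naïve animals belongs to that single time. In the paper's own animals, GASH/Sal hamsters exposed to sound had seizures and exposed Syrian hamsters had none. Where that holds here, sound and seizure cannot be told apart in the GASH/Sal response to sound. The same limit applies to the difference between the strains' responses and to the strain difference after sound. The design text calls the naïve animals not exposed, whereas a protocol field of the labels speaks of the same stimulation for controls, and the groups follow the sample names and the design text. Sex was not used here.

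Mitogen-activated protein kinases (ERK, JNK and p38) are switched on by phosphorylation of a threonine and a tyrosine in their activation loop. The dual-specificity phosphatases of this family remove both phosphates and so end the signal, and several of them are themselves transcribed in response to the kinases they switch off. Dusp1 is an immediate-early gene, induced in neurons by activity and in many tissues by glucocorticoids. The arrays measure transcripts only, and say nothing of phosphatase protein or of kinase phosphorylation.

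The arrays carry mouse probes, and hamster RNA can bind them with an efficiency that differs between genes, so signals are compared between groups for 1 gene and never between genes. Array medians ran from 4.50 to 4.65 on the log2 scale, and pairwise correlations between arrays from 0.965 to 0.993. The array of stimulated Syrian animal 4 and that of naïve GASH/Sal animal 6 stood farthest from the others, with median correlations of 0.969 and 0.971. The names of the animals come in 2 styles, called label series A (replicates 1 to 3 of each group) and B (replicates 4 to 6), with no source used here saying what they mean. The deposited signals carry no detection call, so the presence or absence of tissue markers could not be judged from them. Over the 10 lists of cell type and region markers, the highest and lowest group means of a list differed by 0.029 to 0.11 on the log2 scale. Single markers can move further than the mean of their list. Those of the inferior colliculus and midbrain ran from -0.18 to 0.43 for sound in Syrian animals. For the strain difference without sound they ran from -0.11 to 0.38. The blood list rests on 2 of 6 listed genes. In bulk tissue, fewer cells of a type and less RNA per cell cannot be told apart.

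Dusp1 encodes a nuclear phosphatase that acts on p38, JNK and ERK. Its log2 signal was 5.54, 5.11, 5.46, 5.50, 5.51 and 5.66 in the naïve Syrian animals and 5.50, 5.88, 5.64, 5.69, 6.03 and 5.61 in the stimulated Syrian animals. It was 5.25, 5.30, 5.57, 5.42, 5.54 and 5.38 in the naïve GASH/Sal animals and 5.34, 5.33, 5.35, 5.42, 5.29 and 5.69 in the stimulated GASH/Sal animals. In the stimulated GASH/Sal group, 5 of 6 arrays lay below the lowest stimulated Syrian array, and animal 6 lay inside the stimulated Syrian range. The plot of member signals by array shows that the stimulated Syrian group had the highest mean and that all 4 groups overlapped.

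Group means of Dusp1 ordered as 5.72 ± 0.194 in stimulated Syrian, 5.46 ± 0.185 in naïve Syrian, 5.41 ± 0.125 in naïve GASH/Sal and 5.40 ± 0.146 in stimulated GASH/Sal arrays (SD, n = 6 each). The last 3 of these means differed by less than their SD. Stimulated GASH/Sal was below stimulated Syrian by a log2 difference of -0.32 (SE 0.0892, 95% interval -0.50 to -0.14), a 1.25-fold difference and the value on which the family was selected. This difference was -0.33 in label series A and -0.31 in label series B, and -0.34 without the 2 arrays that stood apart.

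With sound, Dusp1 signal in Syrian animals was higher by 0.26 (SE 0.0892), and all 6 stimulated arrays lay above the naïve mean. In GASH/Sal animals the same comparison gave -0.0059 (SE 0.0892), and the difference between the strains' responses was -0.27 (SE 0.126, 95% interval -0.52 to -0.0093). The response in Syrian animals was 0.30 in label series A and 0.22 in label series B, and 0.20 without naïve Syrian animal 2, whose Dusp1 signal was the lowest of all 24. These 3 comparisons hold the arrays that chose Dusp1 and carry no p. Their SE and the interval are descriptions and not tests, and whether it holds 0 decides nothing. The mean signal of the inferior colliculus and midbrain markers was 6.47 in naïve Syrian and 6.58 in stimulated Syrian animals. These were the lowest and highest of the 4 groups for that list. Of its 11 markers, 7 were above 0 for sound in Syrian animals and 4 below. Astrocyte markers had the same lowest and highest groups, at 6.36 and 6.45, with 7 of 7 above 0. The part of either list in the Dusp1 difference was not tested.

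A pair of comparisons of Dusp1 did not rest on the selecting difference. In naïve animals, GASH/Sal differed from Syrian by -0.05 (SE 0.0892, 95% interval -0.23 to 0.13), with a limma adjusted p of 0.952. The response to sound averaged over both strains was 0.13 (SE 0.0631, 95% interval -0.0012 to 0.26), with a limma adjusted p of 0.675. Neither passed the threshold of 0.05.

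**Figure D1:**
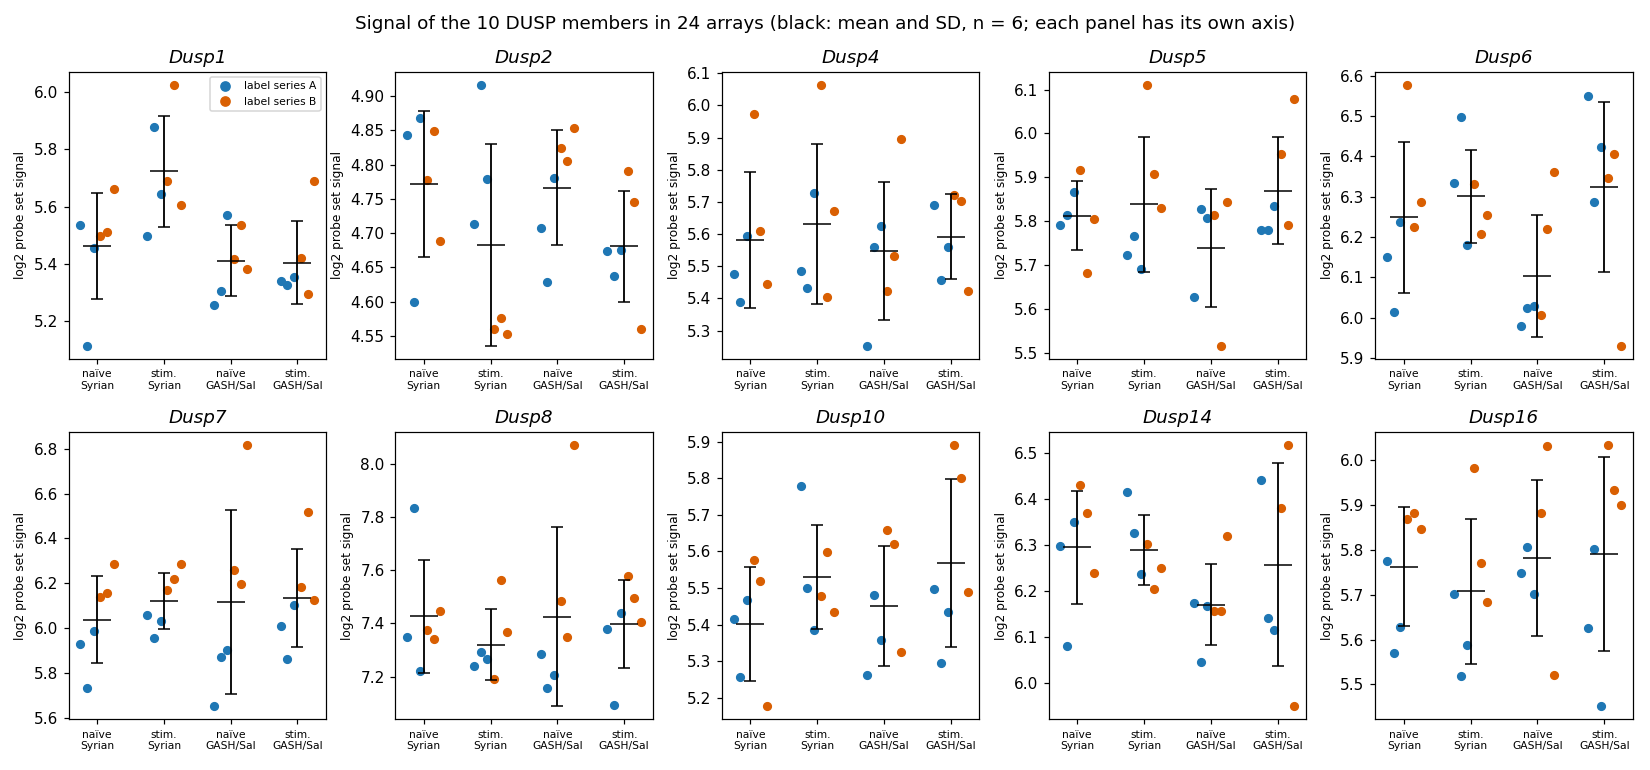
Log2 probe set signal (vertical axis, own scale in each panel) of the 10 phosphatase genes in the 24 arrays in each group (blue, label series A; orange, label series B), and black bars for the mean and SD of 6 arrays. Dusp1 is highest in stimulated Syrian animals (mean 5.72), and Dusp7 points of series B lie mostly above those of series A.

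Across the family, the responses to sound ran from -0.086 to 0.22 in GASH/Sal and from -0.11 to 0.26 in Syrian animals. The SD of a member within a group ran from 0.076 to 0.41. In GASH/Sal animals, 7 of 10 members were above 0 with a median log2 difference of 0.030, beside 55.8% of all genes above 0 and a median of 0.013. None of the 9 members tested passed limma at an adjusted p under 0.05, where 0% of genes did, and 1 of 9, Dusp6, was higher at an unadjusted p under 0.05, where 4.46% of all genes passed in either direction. In Syrian animals, 6 of 10 were above 0 with a median of 0.037, beside 57.5% of genes and a median of 0.019, and 0 of 9 passed with adjustment (0% of genes) or without it (6.64% of genes). The response averaged over strains was above 0 for 7 of 10 members with a median of 0.048, beside 58.3% of genes and a median of 0.015, and 0 of 10 passed with adjustment (0.00502% of genes, a single gene, Fos) or without it (7.39% of genes). The strains share no arrays in these responses, and the difference between them was tested directly: 0 of 9 members passed with adjustment (0% of genes) or without it (3.68% of genes), with a member median of 0.033 and 49.0% of genes above 0.

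**Figure D2:**
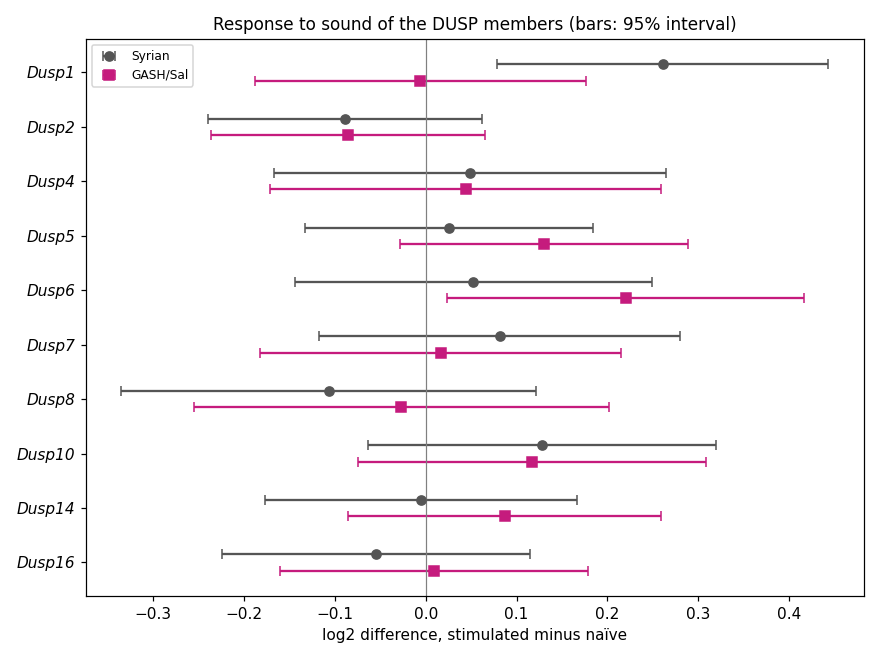
Log2 difference of stimulated minus naïve arrays (horizontal axis) for each phosphatase gene in Syrian (circles) and GASH/Sal (squares) animals, with 95% intervals from the limma fit. Dusp6 in GASH/Sal animals (0.22) has an interval clear of 0, without adjustment over genes. Dusp1 in Syrian animals lies at 0.26 and was chosen on arrays of this comparison, so its interval is a description and not a test.

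Among the other nuclear, inducible members, Dusp2 acts mainly on ERK and p38, Dusp4 on ERK and JNK, and Dusp5 on ERK alone. The group medians of Dusp2 were 4.81 in naïve Syrian (4.60 to 4.87), 4.64 in stimulated Syrian (4.55 to 4.92), 4.79 in naïve GASH/Sal (4.63 to 4.85) and 4.67 in stimulated GASH/Sal animals (4.56 to 4.79). The Dusp2 mean over the 24 arrays, 4.73, lay close to the array medians of 4.50 to 4.65. Dusp2 was lower after sound by a similar amount in both strains. The differences were -0.088 and -0.086 (SE 0.0739 each) in Syrian and GASH/Sal animals, with limma adjusted p of 0.847 and 0.999. Within the stimulated Syrian group the 3 arrays of series B (4.55 to 4.58) all lay below the 3 of series A (4.71 to 4.92), the widest split of Dusp2 between the series. The Syrian response of Dusp2 was accordingly 0.033 in series A and -0.21 in series B.

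Dusp5 was above the naïve mean in 6 of 6 stimulated GASH/Sal arrays. Its signal ran from 5.52 to 5.84 (median 5.81) without sound and from 5.78 to 6.08 (median 5.81) with it, a difference of 0.13 (SE 0.0775, limma adjusted p 0.999). The medians were the same to 2 decimals and the means differed through 2 low naïve and 2 high stimulated arrays. In Syrian animals Dusp5 ran from 5.68 to 5.92 (median 5.81) and from 5.69 to 6.11 (median 5.80), a difference of 0.026.

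Dusp4 varied more between animals of a group than between groups. Its range was 5.39 to 5.97 in naïve Syrian, 5.40 to 6.06 in stimulated Syrian, 5.25 to 5.90 in naïve GASH/Sal and 5.42 to 5.72 in stimulated GASH/Sal animals. The responses of Dusp4 were 0.049 and 0.044 in Syrian and GASH/Sal animals (SE 0.106 each), with 95% intervals that reached from -0.17 to 0.26 in both strains. Without the 2 arrays that stood apart the Syrian value was -0.031.

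Dusp6 and Dusp7 are cytoplasmic phosphatases selective for ERK, and Dusp6 transcription is a known feedback target of ERK signalling. Dusp6 signal in naïve GASH/Sal animals was 5.98, 6.02, 6.03, 6.01, 6.22 and 6.36, and in stimulated GASH/Sal animals 6.55, 6.29, 6.42, 6.35, 6.41 and 5.93. In that strain 5 of 6 stimulated arrays lay above the naïve mean and 3 above the highest naïve array, while stimulated animal 6 was the lowest of all. The difference was 0.22 (SE 0.0962, 95% interval 0.024 to 0.42), which had an unadjusted p of 0.0293 and a limma adjusted p of 0.999. In Syrian animals Dusp6 ran from 6.01 to 6.58 (median 6.23) without sound and from 6.18 to 6.50 (median 6.29) with it, a difference of 0.05 (SE 0.0962). The responses of the 2 strains differed by 0.17 (SE 0.136), with a limma adjusted p above 0.99.

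The Dusp6 response was larger in label series A than in label series B in both strains. In GASH/Sal animals the series A value was 0.41 and the series B value 0.032. In Syrian animals they were 0.20 and -0.099. Averaged over strains it was 0.31 in series A alone, where it passed with a limma adjusted p of 0.0343 and where 2.23% of all genes passed, and -0.033 in series B alone. The averaged response was larger in series A by 0.34 (SE 0.125), a test added after the values of each series were seen, and this difference did not pass over all genes, with a limma adjusted p of 0.258 and 0.00502% of genes called. Without adjustment, 1 of 10 members, Dusp6 (limma p 0.0117), was under 0.05 for this difference between the series, and so were 2513 of 19938 genes. No other member passed in either series alone.

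Dusp7 spread widely among naïve GASH/Sal animals, from 5.65 to 6.82 with a median of 6.05 and an SD of 0.408. The top value was that of animal 6, whose array stood apart. Elsewhere the Dusp7 range was 5.73 to 6.28 in naïve Syrian, 5.96 to 6.29 in stimulated Syrian and 5.86 to 6.52 in stimulated GASH/Sal animals. Without sound GASH/Sal differed from Syrian by 0.079 (SE 0.0974), and by -0.03 without the 2 arrays that stood apart. The responses of Dusp7 to sound were 0.082 in Syrian and 0.017 in GASH/Sal animals (SE 0.0974 each). The response in GASH/Sal animals was 0.18 in series A and -0.15 in series B.

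**Figure D3:**
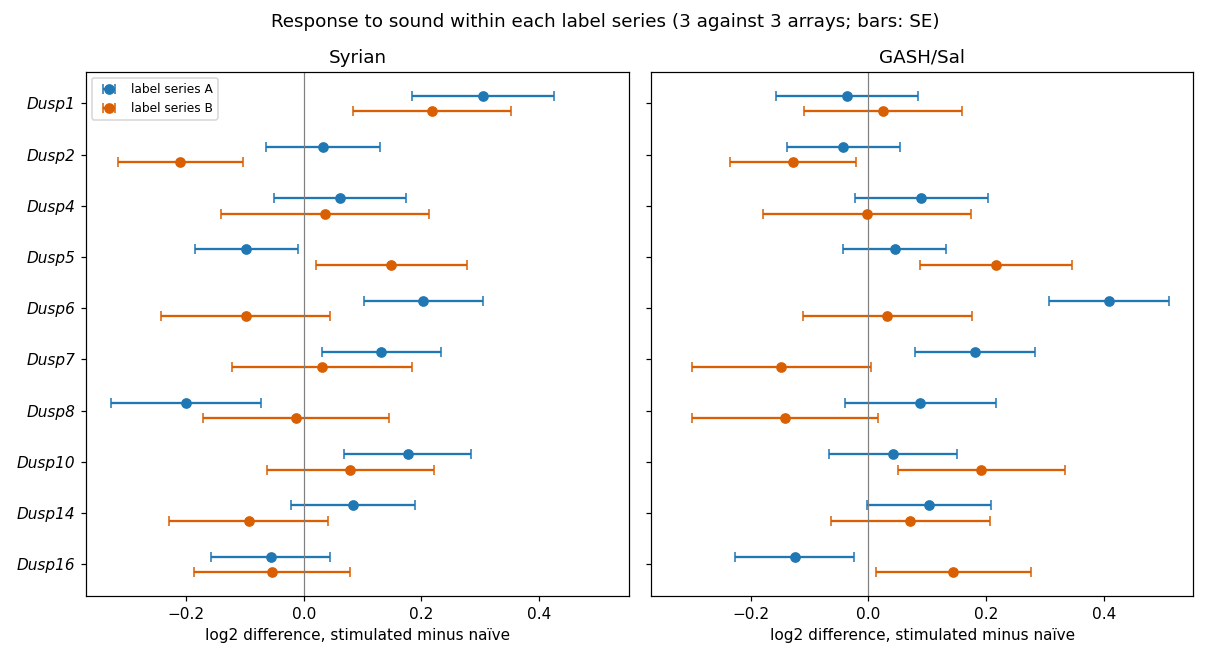
Log2 difference of stimulated minus naïve arrays (horizontal axis) computed within label series A and within label series B, 3 against 3 arrays, for Syrian (left) and GASH/Sal animals (right), with bars for the SE. Dusp1 in Syrian animals lies above 0 in both series (0.30 and 0.22), and Dusp6 in GASH/Sal animals lies at 0.41 (series A) and 0.032 (series B).

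Dusp8, Dusp10 and Dusp16 act on JNK and p38 rather than ERK. Dusp10 was the member for which both responses were above 0.1, at 0.13 in Syrian and 0.12 in GASH/Sal animals (SE 0.0938 each). Its signal ran from 5.18 to 5.58 (median 5.44) and from 5.39 to 5.78 (median 5.49) in naïve and stimulated Syrian animals, and from 5.26 to 5.66 (median 5.42) and from 5.30 to 5.89 (median 5.49) in naïve and stimulated GASH/Sal animals. Stimulated arrays lay above the naïve mean in 5 of 6 Syrian and 4 of 6 GASH/Sal animals, and the averaged response of 0.12 (SE 0.0663, 95% interval -0.013 to 0.26) did not pass (unadjusted p 0.075).

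Dusp8 is a phosphatase gene known to be expressed in brain. Its signal ran from 7.22 to 7.83 (median 7.36) in naïve Syrian, 7.19 to 7.56 (median 7.28) in stimulated Syrian, 7.16 to 8.07 (median 7.32) in naïve GASH/Sal and 7.09 to 7.58 (median 7.42) in stimulated GASH/Sal animals. The tops of both naïve groups were single arrays, Syrian animal 2 and GASH/Sal animal 6. The Dusp8 responses were -0.11 in Syrian and -0.027 in GASH/Sal animals (SE 0.112 each), and the Syrian value was -0.0044 without naïve Syrian animal 2. Dusp8 is the member with 2 probe sets, which correlated at 0.29 over the 24 arrays; the other probe set gave -0.036 and -0.003 for the same comparisons. The remaining member of the trio, Dusp16, gave -0.055 and 0.0093 (SE 0.0829 each), with group means between 5.71 and 5.79.

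Dusp14 encodes a small phosphatase that lacks the kinase-docking domain of the other members. Its naïve GASH/Sal values were 6.05 to 6.32 (median 6.16), against 6.08 to 6.43 (median 6.32) in naïve Syrian animals, a difference of -0.12 (SE 0.0842, limma adjusted p 0.868). Stimulated GASH/Sal arrays fell on both sides of the other groups: 3 lay above the highest naïve GASH/Sal array and animal 6 lay below the lowest, at 5.95. The same animal was the lowest for Dusp6 and the highest of its group for Dusp1.

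Without sound the strains differed little in this family. GASH/Sal was above Syrian for 3 of 10 members with a median log2 difference of -0.019, beside 45.8% of all genes above 0 and a median of -0.011. None of 10 passed with adjustment (0% of genes) or without it (6.02% of genes). The differences farthest from 0 were those of Dusp6 at -0.15 (SE 0.0962) and Dusp14 at -0.12. In both genes 1 of 6 naïve GASH/Sal arrays lay above the naïve Syrian mean.

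After sound, GASH/Sal was above Syrian for 6 of 10 members with a median of 0.018, beside 44.0% of genes above 0, and 0% of genes passed with adjustment. Apart from Dusp1 at -0.32, the members lay between -0.038 for Dusp4 and 0.084 for Dusp16. Dusp2 and Dusp10 lay on both sides of 0, at -0.14 and -0.15 in series A and at 0.14 and 0.22 in series B. The groups of every member overlapped. The plot of strain differences shows Dusp1 alone at the left, which is the value that selected it.

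**Figure D4:**
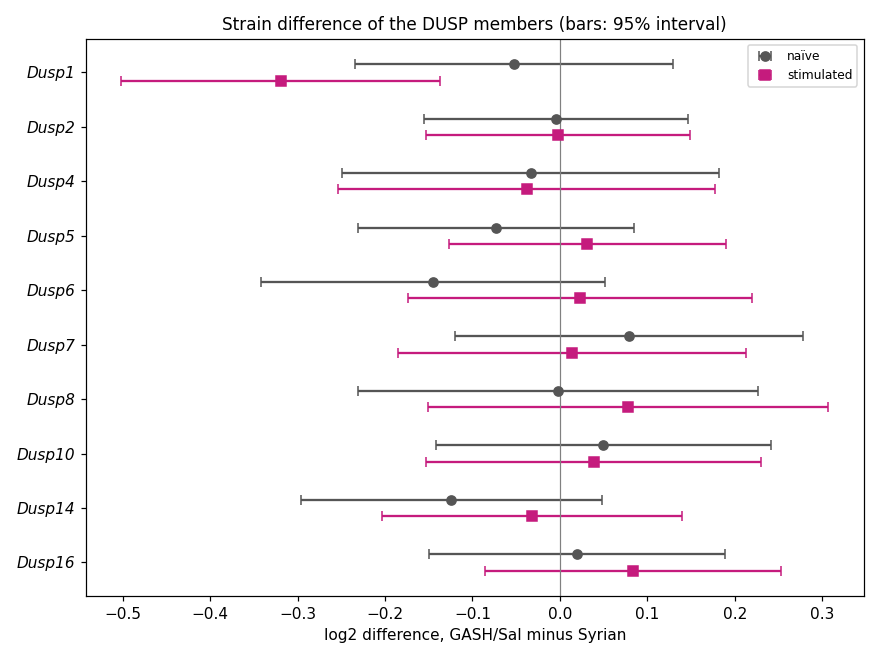
Log2 difference of GASH/Sal minus Syrian arrays (horizontal axis) for each phosphatase gene in naïve (circles) and stimulated (squares) animals, with 95% intervals from the limma fit. Dusp1 after sound lies at -0.32 and chose the family, so its interval is a description and not a test.

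Levels of some members differed between the label series more than between the study's groups. Over all groups, Dusp7 was higher in series B by 0.35 (means 5.93 and 6.28, SE 0.0689, limma adjusted p 0.00139), and Dusp16 by 0.20 (means 5.66 and 5.86, SE 0.0586, limma adjusted p 0.0317). These 2 of 10 members passed where 6.89% of all genes did, in a test added after the data were seen. Dusp1 was 0.12 higher in series B (SE 0.0631), a difference that did not pass. Each series holds 3 animals of every group and was a term in the fit.

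Members did not move as a block over the 24 arrays. Of their 45 pairs, 37 had a Pearson correlation above 0, with a median of 0.13 and a range from -0.42 for Dusp2 and Dusp5 to 0.74 for Dusp6 and Dusp14. The Dusp6 and Dusp14 correlation was 0.72 after group and series means were removed, so it was carried by differences between animals of a group. Dusp6 also correlated with Dusp4 (0.54), and Dusp7 with Dusp8 (0.55). Dusp8 and Dusp16 had a correlation of -0.21 that was -0.70 after group and series means were removed. Naïve GASH/Sal animal 6 and naïve Syrian animal 2 had the highest Dusp8 signals of their groups (8.07 and 7.83). The same arrays had the lowest Dusp16 signals of their groups (5.52 and 5.57). Naïve GASH/Sal animal 6 also had the highest Dusp7 signal (6.82). The correlations of Dusp8 with Dusp7 and Dusp16 were not recomputed without these arrays. Arrays of 1 set share scaling and RNA quality, and these values are descriptions. The 45 pairs were not set beside pairs of other genes. Correlations of Dusp1 with the other 9 members ran from -0.18 with Dusp8 to 0.25 with Dusp5, and its correlation with Fos was 0.18. The genes whose signal was most like that of Dusp1 over the 24 arrays were Thbs3 (0.73), 1700129C05Rik (0.71), Olfr1357 (0.69), Olfr1182 (0.68) and Lrriq3 (0.67). They were picked as the highest over all genes tested, and their correlations hold the group difference that chose Dusp1. After group and series means were removed, the values were 0.56, 0.47, 0.88, 0.46 and 0.59. Group means of 1700129C05Rik, Olfr1357, Olfr1182 and Lrriq3 ran from 2.46 to 3.99, where array medians were 4.50 to 4.65.

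The rest of the MAP kinase pathway is described by counts at an unadjusted p under 0.05, which 4.46% of all genes passed for sound in GASH/Sal, 6.64% in Syrian animals and 7.39% for the response averaged over strains. Of 19 other dual-specificity and related phosphatases, 2 were higher and 1 lower after sound in Syrian animals, namely Dusp19 (0.29, SE 0.117), Styx (0.29, SE 0.128) and Dusp3 (-0.22, SE 0.099), 0 of 19 passed in GASH/Sal animals, and 4 were higher in the averaged response. Of 11 MAP kinases measured, 1 was higher in Syrian animals (Mapk11, 0.18, SE 0.0824), 0 passed in GASH/Sal animals and 2 were higher in the averaged response. Mapk11 gave -0.11 in GASH/Sal animals, a difference between the strains' responses of -0.29 (SE 0.117, unadjusted p 0.0189, limma adjusted p above 0.99), and after sound it was lower in GASH/Sal than in Syrian arrays by a log2 difference of -0.24 (SE 0.0824, limma adjusted p 0.887). Over the 11 MAP kinases, the strain difference after sound ran from -0.24 to 0.25, with a median of 0.0060. It was above 0 for 6 of them, beside 44.0% of all genes. Of 6 MAP kinase kinases, 2 were higher in Syrian animals, Map2k1 at 0.22 and Map2k6 at 0.21, 0 passed in GASH/Sal animals and 2 were higher in the averaged response. Of 20 upstream activators, 1 was lower in Syrian animals (Map3k11, -0.16) and in the averaged response, and 0 passed in GASH/Sal animals. Of 15 effector kinases and transcription factors, 3 were higher in GASH/Sal animals, 0 passed in Syrian animals and 2 were higher in the averaged response. The 3 were Elk4 (0.23 in GASH/Sal and 0.078 in Syrian animals), Creb1 (0.25 and 0.036) and Jun (0.28 and 0.26), and the difference between the strains' responses passed for none of them. None of the genes in this paragraph passed with adjustment over all genes.

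ERK feedback targets, transcribed like Dusp6 when ERK is active, were above 0 in 11 of 15 cases in each strain, beside 55.8% of all genes in GASH/Sal and 57.5% in Syrian animals. Their medians were 0.074 in GASH/Sal and 0.036 in Syrian animals, beside 0.013 and 0.019 over all genes. Etv1 alone of them had an unadjusted p under 0.05, in GASH/Sal animals (0.25, SE 0.113, limma adjusted p 0.999). Spry2 and Spry4, which restrain receptor tyrosine kinase signalling, gave 0.21 and 0.034 in GASH/Sal and -0.006 and -0.17 in Syrian animals. The related inhibitor gene Spred1 gave 0.081 in GASH/Sal and 0.051 in Syrian animals, and the transcription factor gene Etv5 gave -0.043 and -0.16. None of these 4 passed the threshold in either strain.

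Immediate-early genes and glucocorticoid-induced genes are the classes to which Dusp1 is usually assigned. Of 12 immediate-early genes, 12 were above 0 in GASH/Sal animals with a median of 0.36, and 10 in Syrian animals with a median of 0.099, beside 55.8% and 57.5% of all genes above 0 and medians of 0.013 and 0.019. At an unadjusted p under 0.05, 9 of them passed in GASH/Sal and 3 in Syrian animals, beside 4.46% and 6.64% of all genes. Fos rose by 0.58 (SE 0.0839) averaged over strains with a limma adjusted p of 0.00222, with 0.68 in GASH/Sal and 0.48 in Syrian animals. Of 12 glucocorticoid-induced genes measured, 11 were above 0 in GASH/Sal (median 0.20) and 9 in Syrian animals (median 0.074), beside the same 55.8% and 57.5% of all genes. At an unadjusted p under 0.05, 5 of them passed in GASH/Sal and 3 in Syrian animals, beside the same 4.46% and 6.64%. Klf9, a glucocorticoid-induced transcription factor gene, gave 0.47 in GASH/Sal and 0.23 in Syrian animals, with limma adjusted p of 0.347 and 0.726. The difference between the strains' responses, GASH/Sal minus Syrian, was above 0 for 12 of 12 immediate-early and 11 of 12 glucocorticoid-induced genes, beside 49.0% of all genes, and none of them passed with adjustment. It was 0.20 (SE 0.168) for Fos and 0.24 (SE 0.137) for Klf9. The exception was Sgk1, a kinase gene, at -0.15 (SE 0.211, limma adjusted p above 0.99). For Dusp1, given without a test, it was -0.27. Without sound, GASH/Sal was above Syrian for 3 of 12 immediate-early and 1 of 12 glucocorticoid-induced genes, beside 45.8% of all genes. The medians were -0.073 and -0.079. After sound, GASH/Sal was above Syrian for 10 of 12 and 6 of 12, beside 44.0% of all genes, with medians of 0.12 and -0.0013.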

How the data were processed

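The authors deposited log2 probe set signals from 24 mouse whole-transcript arrays, made with RMA per the submitters' processing notes, which give no version. RMA subtracts background, makes the arrays' distributions alike and gives 1 value per probe set, so small differences in total RNA are removed. Of 35556 probe sets, 21789 carried 1 symbol in the platform annotation, 1621 several and 12146 none, and 999 genes with more than 1 were represented by their brightest probe set on average. Groups came from the labels, and 0 columns were left unused. Differences were fitted with limma 3.58.1 (lmFit and eBayes, R 4.3.3) over all 19938 genes with 4 groups and the label series as terms, two-sided, and adjusted by Benjamini-Hochberg over all genes with a threshold of 0.05. The labels call the arrays biological replicates, so the errors are the spread between animals. Arrays give no read depth, and their number limits the precision (median SE 0.0895). The fit was tested on simulated data.

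The members and gene lists were chosen with earlier results of these data known. Named genes were all members, a fixed set of pathway genes, up to 3 genes per list and comparison with the lowest unadjusted p under 0.05, and the 5 genes most correlated with Dusp1; of the non-members, those beside a result on the phosphatases are given. Alternatives were no label series, the replicate number as a block, each series alone, other probe set rules, a filter at the median signal, other scalings, a trended robust variance, array weights, and leaving out each array or the 2 that stood apart.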

Additional observations from a re-analysis of the deposited data

Results flagged for a closer look

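In 4 of the 40 combinations of member and group, 1 array lay far from the other 5 for its group's range, where about 1 in 20 groups would do so by chance. Dusp1 was low in naïve Syrian animal 2, at 5.11, with the next lowest array at 5.46. Dusp1 was high in stimulated GASH/Sal animal 6, at 5.69, with the next highest at 5.42. Dusp8 was high in naïve Syrian animal 2, at 7.83, with the next at 7.44, and in naïve GASH/Sal animal 6, at 8.07, with the next at 7.48. Naïve Syrian animal 2 thus holds both the lowest Dusp1 and the highest Dusp8 signal of its group, and its median correlation to the other arrays was 0.979.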

How the results depend on the processing

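The 2118 values recomputed for the members covered tested and untested comparisons. Sign changes were counted in the tested comparisons only, where there were 122, none of which passed the threshold. The differences of Dusp1 between the stimulated groups and between the Syrian groups kept their sign under every alternative run. Dropping the label series, blocking on the replicate number, the probe set rules, the signal filter and the trended robust variance cannot move these differences. The untested Dusp1 response in GASH/Sal animals, -0.0059, was 0.025 in series B alone. It ran from -0.053 to 0.041 with 1 array left out at a time. The count of members passing stayed at 0 except in series A alone, where it was 1 for sound averaged over strains (Dusp6). In series A alone, the sign changed for sound in GASH/Sal Dusp8 0.088, Dusp16 -0.13, for sound in Syrian animals Dusp2 0.033, Dusp5 -0.097, Dusp14 0.083, for sound averaged over strains Dusp5 -0.027, for strain without sound Dusp1 0.0073, Dusp7 -0.073, Dusp10 -0.012, for the difference of responses Dusp2 -0.076, Dusp4 0.028, Dusp7 0.049, Dusp16 -0.070. In series B alone, the sign changed for sound in GASH/Sal Dusp4 -0.0017, Dusp7 -0.15, for sound in Syrian animals Dusp6 -0.099, for sound averaged over strains Dusp6 -0.033, Dusp7 -0.058, Dusp14 -0.011, Dusp16 0.045, for strain without sound Dusp2 0.055, Dusp8 0.25, Dusp16 -0.054, for the difference of responses Dusp8 -0.13, Dusp10 0.11. With array weights, the sign changed for sound in GASH/Sal Dusp8 0.048, Dusp16 -0.049, for sound in Syrian animals Dusp4 -0.028, Dusp5 -0.027, for sound averaged over strains Dusp8 0.0047, for strain without sound Dusp7 -0.034, for the difference of responses Dusp4 0.13, Dusp7 0.033. Without the 2 arrays that stood apart, the sign changed for sound in GASH/Sal Dusp8 0.090, Dusp16 -0.065, for sound in Syrian animals Dusp4 -0.031, Dusp5 -0.024, for sound averaged over strains Dusp8 0.011, for strain without sound Dusp7 -0.030, for the difference of responses Dusp2 -0.00084, Dusp4 0.14, Dusp7 0.023. With median centring, the sign changed for sound in GASH/Sal Dusp16 -0.0043, for strain without sound Dusp2 0.020, Dusp8 0.023, for the difference of responses Dusp2 -0.0042. With quantile normalisation, the sign changed for sound in GASH/Sal Dusp16 -0.0069, for strain without sound Dusp2 0.019, for the difference of responses Dusp2 -0.0020. With the mean of probe sets, the sign changed for strain without sound Dusp8 0.082. Leaving out 1 array at a time gave, where a sign changed, ranges for sound in GASH/Sal Dusp4 -0.0039 to 0.10, Dusp7 -0.044 to 0.13, Dusp8 -0.066 to 0.092, Dusp16 -0.067 to 0.060, for sound in Syrian animals Dusp4 -0.028 to 0.12, Dusp5 -0.023 to 0.049, Dusp14 -0.046 to 0.019, for sound averaged over strains Dusp16 -0.061 to 0.0023, for strain without sound Dusp2 -0.043 to 0.026, Dusp4 -0.092 to 0.035, Dusp7 -0.031 to 0.14, Dusp8 -0.12 to 0.10, Dusp10 -0.010 to 0.088, Dusp16 -0.012 to 0.096, for the difference of responses Dusp2 -0.029 to 0.050, Dusp4 -0.073 to 0.072, Dusp7 -0.13 to 0.045, Dusp8 -0.022 to 0.20, Dusp10 -0.066 to 0.054, Dusp16 -0.012 to 0.11. Replicate numbers did not pair the animals (correlations of same-numbered arrays -0.21 to 0.12, 2 of 24 over 0.1). Every group holds each number on a single array, so a block on the number cannot change a difference between groups. The fit with that block called 0 members. Over all genes, calls for sound averaged over strains went from 1 to 444 in series A alone, 14 with array weights and 2 without the arrays that stood apart, and for strain without sound from 0 to 64, 18 and 2 without those arrays, with array weights and with either median centring or the signal filter. In series A alone 7 and 5 genes passed for sound in GASH/Sal and in Syrian animals. The causes were not tested. The signal filter left Dusp2 out. Deposited signals carry no background level, so whether a member was detected could not be judged.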
